A study of Mus musculus with 2 samples.

Results

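The genes described here were a named list of 44 genes that act in G2 and mitosis, all 44 of which were present among the 32285 genes of both count matrices. Their transcripts were examined in tumor-infiltrating immune cells from a lenvatinib-resistant hepatocellular carcinoma (HCC) mouse model, in which the study asked how adding palbociclib, an inhibitor of the kinases CDK4 and CDK6, altered the immune compartment. Single-cell RNA (scRNA) sequencing had been run on 2 libraries of live CD45+ cells sorted from liver tumors. The lenvatinib library came from tumors of mice kept on lenvatinib, a multikinase inhibitor, and the combo library from tumors of mice given lenvatinib and palbociclib.

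In both groups, tumors had been induced in wild-type male C57BL/6J mice, 6 to 8 weeks old, by hydrodynamic tail vein injection of plasmids that carried human MYC, a guide against Trp53 and a sleeping beauty transposase. The plasmids reach hepatocytes, so the sorted immune cells were those of wild-type hosts. Lenvatinib at 30 mg/kg was started 12 days after injection and was given to both groups for 25 days before palbociclib at 100 mg/kg was added in the combo group. No library of untreated tumors was analysed here, and the number of mice pooled in each library was not given in the sources used here. With 1 library per group, no difference between the libraries could be tested against the spread between animals. All intervals are 95% intervals that cover counting error only, and UMIs from the same cell are not independent of each other.

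Cells enter mitosis after DNA replication, when cyclin A and cyclin B bind CDK1 and the kinase becomes active. Chromosomes are then condensed and captured by spindle microtubules at the kinetochore, and the anaphase-promoting complex (APC/C) destroys cyclin B so that the cell can divide. CDK4 and CDK6 act earlier, by phosphorylating RB in G1, and most mitotic genes are repressed in resting cells by complexes that bind the CHR element of their promoters. In tumors, dividing immune cells are mainly activated T cells and natural killer (NK) cells, plasmablasts, and immature myeloid cells.

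The 44 genes were used as a named list and were grouped here by role. Whether their expression over the cell cycle had a part in choosing them is not stated, so the motif shares below are a description only. Promoters from 250 bases before to 50 bases after the transcription start were given by RefSeq for 37 of the 44 genes, in 40 promoters. The CHR element, searched as TTTGAA on both strands, was held by 67.5% of these 40 promoters and by 17.9% of all 32851 mouse promoters of the same length. The CCAAT box, searched as CCAAT on both strands and bound by NF-Y, was held by 32 of the 40 promoters and by 37.4% of all promoters. Both motifs together were found in 57.5% of the promoters of the list and in 6.95% of all promoters. E2F sites, searched as TTTGGCGC, TTTCCCGC, TTTGCCGC or TTTCGCGC on both strands, were found in 2 of the 40 and in 2.26% of all promoters. A match is a description of the letters, not evidence of binding. The promoters are shown for the 3 genes with the smallest ratio of combo to lenvatinib in T cells (Gtse1, Cenpf and Ttk) and for Cks2, which had the largest. Kif11, Top2a and Hmgb2 were added after the matches had been seen, because their CHR element lies within 40 bases of the start, as it does in 8 of the genes. Each sequence is the 120 bases before the RefSeq start on assembly GRCm38.p6 (mm10), 5′ to 3′ on the strand of the gene. Capitals mark CHR elements (TTTGAA or its reverse complement TTCAAA) and CCAAT boxes (CCAAT or its reverse complement ATTGG).
Gtse1 (chr15:85859587-85859706, plus strand): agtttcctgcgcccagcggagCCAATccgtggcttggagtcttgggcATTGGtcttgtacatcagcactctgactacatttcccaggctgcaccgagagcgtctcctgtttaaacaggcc
Cenpf (chr1:189688087-189688206, minus strand): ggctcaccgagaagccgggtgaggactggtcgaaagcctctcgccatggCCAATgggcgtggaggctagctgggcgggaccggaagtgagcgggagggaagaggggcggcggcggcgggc
Ttk (chr9:83834569-83834688, plus strand): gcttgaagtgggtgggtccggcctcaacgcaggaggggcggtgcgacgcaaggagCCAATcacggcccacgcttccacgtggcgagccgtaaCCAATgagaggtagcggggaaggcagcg
Cks2 (chr13:51645112-51645231, plus strand): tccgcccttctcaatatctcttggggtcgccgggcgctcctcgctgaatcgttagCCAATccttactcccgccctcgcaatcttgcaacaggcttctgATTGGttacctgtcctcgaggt
Kif11 (chr19:37376262-37376381, plus strand): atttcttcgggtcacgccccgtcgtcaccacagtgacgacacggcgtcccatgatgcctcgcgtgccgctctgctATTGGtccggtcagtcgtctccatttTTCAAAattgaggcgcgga
Top2a (chr11:99024190-99024309, minus strand): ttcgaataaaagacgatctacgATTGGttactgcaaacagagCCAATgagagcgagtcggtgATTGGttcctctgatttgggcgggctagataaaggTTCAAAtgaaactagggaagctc
Hmgb2 (chr8:57511723-57511842, plus strand): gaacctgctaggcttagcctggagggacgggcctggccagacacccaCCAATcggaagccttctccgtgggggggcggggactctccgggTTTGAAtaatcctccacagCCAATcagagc
The Kif11 promoter holds a CHR element that starts 19 bases before the transcription start and a CCAAT box 45 bases before it. In the Top2a promoter the CHR element starts 23 bases before the start, with 3 CCAAT boxes upstream of it. Hmgb2 has the CHR element 30 bases before the start, between 2 CCAAT boxes. Gtse1, Ttk and Cks2 have 2 CCAAT boxes each and Cenpf has 1 in the stretch shown, so the box is present at both ends of the T-cell order. Cenpf and Ttk hold a CHR element in the longer promoter searched, though not within the stretch shown. For Gtse1 and Cks2 no CHR element was found in the promoters searched.

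The libraries held 14509 and 11989 barcodes with 98107503 and 93583402 UMIs (lenvatinib and combo). Cells with at most 6000 genes and at most 25% mitochondrial UMIs were kept, 14201 and 11613 in number, with a median of 5541 and 5754 UMIs. A cell was assigned to a type when it held a UMI of 1 of 6 gate genes and none of the other 5: Cd3e for T cells, Ncr1 for NK cells, Cd79a for B cells, Csf1r for monocytes and macrophages (Mo/MΦ), Csf3r for neutrophils and Flt3 for dendritic cells. This assigned 65.8% of cells in the lenvatinib library and 64.6% in the combo library, while 16.4% and 23.0% held several gate genes. The assigned cells held 66.5% and 54.5% of the UMIs of the list. Cells with several gate genes held 77147 and 58768 of these UMIs, which are not part of the main results by type. Of the 7 other markers fixed for each type, all 7 were highest in their own type in both libraries for NK cells, B cells and neutrophils, and 6 and 7 were for T cells. For Mo/MΦ (5 and 6) the exceptions were Ccr2 and Ly6c2, and for dendritic cells (5 and 6) they were Cd209a and Ccr7, the latter being highest in B cells. Neutrophil RNA in cells of other types differed between the libraries: per 1000000 UMIs (CPM), the 8 neutrophil markers summed to 433 in T-gated cells under lenvatinib and to 3323 under combo. The gate gene Csf3r, 1 of the 8, is at 0 there by the rule of the gate. In B-gated cells they summed to 385 and 11525 CPM. Its part in the results was not tested. A total of 49 barcodes occurred in both libraries and were kept, and without them every sum and share moved by less than its counting interval.

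Over all cells kept, the 44 genes summed to 2898 CPM in the lenvatinib library and 1731 CPM in the combo library, a ratio of combo to lenvatinib of 0.597. The difference was not spread evenly over the immune compartment. Under lenvatinib the summed level was highest in T cells (3167 CPM), followed by NK cells (2641), neutrophils (2566), dendritic cells (2282), B cells (2230) and Mo/MΦ (2106). The intervals of NK cells and neutrophils overlapped, as did those of dendritic and B cells and of B cells and Mo/MΦ. Under combo, dendritic cells (2189 CPM) and neutrophils (2076) came first, followed by NK cells (1558), T cells (1517), Mo/MΦ (1415) and B cells (846.1), with overlapping intervals for NK and T cells. The summed level was lower by the most in B cells (ratio 0.379, interval 0.362 to 0.397), followed by T cells (0.479, 0.473 to 0.485), NK cells (0.590, 0.578 to 0.602) and Mo/MΦ (0.672, 0.639 to 0.706). In neutrophils the ratio was 0.809 (0.786 to 0.833), and in dendritic cells it was 0.959 (0.926 to 0.994). The intervals of neighbours in this order did not overlap, but the order of B and T cells turned in UMIs per cell (0.473 and 0.440) and when any cell with the gate gene was taken (0.522 and 0.492). The levels and ratios of neutrophils and dendritic cells depended on the scale, since both held more UMIs per cell under combo: counted as UMIs per cell, the ratio was 1.72 in neutrophils and 1.33 in dendritic cells, whereas it stayed below 1 in T cells (0.440), NK cells (0.624), B cells (0.473) and Mo/MΦ (0.866). In such sums, fewer dividing cells and less RNA per cell cannot be told apart. Cells that held several of the genes were also counted, as given after the levels. Less RNA of these genes per dividing cell would lower that count as well, so it does not separate them either.

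**Figure D1:**
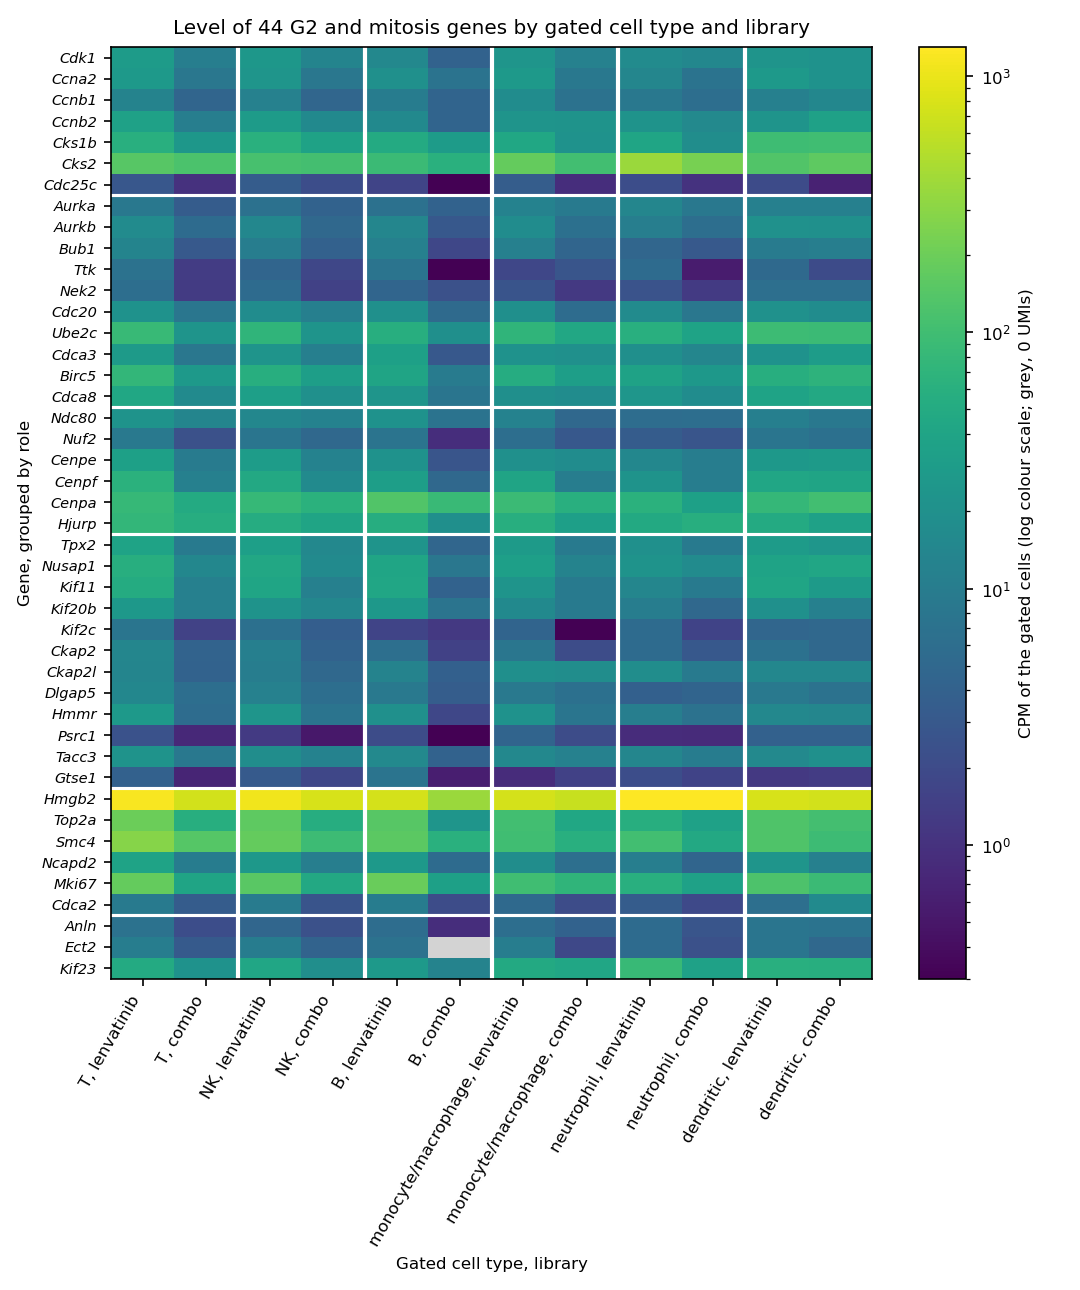
Heat map of the level (CPM on a log colour scale) of each of the 44 genes (rows, grouped by role) in each gated type and library (columns in pairs, lenvatinib left and combo right). Grey marks 0 UMIs (Ect2 in B cells under combo), and Hmgb2 is the brightest row, at 1198 and 736.3 CPM in T cells.

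T cells provided the deepest view of the list, with 113737 UMIs of the 44 genes in 5173 cells under lenvatinib and 36711 UMIs in 3795 cells under combo. The summed level was 3167 CPM (3148 to 3185) and 1517 CPM (1501 to 1532). All 44 genes were lower under combo, and 38 of 44 had a ratio of 0.5 or less, against 4.62% of the 13703 genes with at least 20 UMIs in T cells over both libraries. None had a ratio of 2 or more, against 3.35% of all genes. The median ratio was 0.311 for the list and 0.907 for all genes. The 6 genes above 0.5 were Smc4, Ndc80, Hmgb2, Cenpa, Hjurp and Cks2. The values below are CPM of 3′ UMI counts that are not scaled by transcript length, so levels are compared between libraries for each gene and not between genes.

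Among cyclins, CDK1 and its partners, 6 of 7 genes had a ratio of 0.5 or less in T cells. Cdk1, the kinase that drives entry into mitosis, was at 29.6 CPM under lenvatinib and 10.8 CPM under combo (ratio 0.366, 0.319 to 0.420). Its S and G2 cyclin Ccna2 was at 28.0 and 8.43 CPM (0.301, 0.258 to 0.350). The B-type cyclins were at 12.6 and 4.59 CPM for Ccnb1 and at 35.8 and 10.9 CPM for Ccnb2. All 4 of these genes were thus about equally lower, with ratios between 0.301 and 0.366. Cdc25c, the phosphatase that removes inhibitory phosphates from CDK1, was sparse at 2.90 and 0.992 CPM (0.342, 0.210 to 0.538). The CDK-binding subunits separated, with Cks1b at 59.9 and 25.3 CPM (0.422) and Cks2 at 149 and 121 CPM (0.813, 0.777 to 0.851), the highest ratio of the list.

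The mitotic kinases, checkpoint genes and APC/C genes were lower without exception, 10 of 10 with a ratio of 0.5 or less. The spindle checkpoint kinase Ttk was at 7.13 CPM under lenvatinib and 1.32 CPM under combo (0.186, 0.124 to 0.269). Bub1, which acts in the same checkpoint, was at 13.2 and 3.14 CPM (0.238, 0.184 to 0.304), and the centrosome kinase Nek2 at 6.18 and 1.28 CPM (0.207, 0.138 to 0.303). These 3 kinases had the smallest ratios of the group. The chromosomal passenger complex, which corrects faulty attachments, gave similar values for its kinase Aurkb (16.9 and 5.66 CPM, 0.335), for Birc5 or survivin (76.1 and 26.5 CPM, 0.349) and for Cdca8 or borealin (44.3 and 16.5 CPM, 0.373). Aurka, the kinase of the spindle poles, was at 8.63 and 3.39 CPM (0.393). The APC/C coactivator Cdc20 was at 21.5 and 8.14 CPM (0.378), and Ube2c, the ubiquitin-conjugating enzyme that works with APC/C, at 86.0 and 22.8 CPM (0.265, 0.241 to 0.290). Cdca3, a factor of mitotic entry, was at 29.1 and 8.31 CPM (0.285).

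The 6 centromere and kinetochore genes spanned almost the whole range of the list. Cenpf, a large kinetochore protein that accumulates in G2, was at 63.0 CPM under lenvatinib and 11.5 CPM under combo (0.182, upper limit 0.207). Cenpe, a kinetochore motor, was at 34.4 and 9.71 CPM (0.282). At the other end stood the centromeric histone Cenpa (82.5 and 50.9 CPM, 0.617, 0.577 to 0.659) and Hjurp, the chaperone that deposits it (78.0 and 55.0 CPM, 0.705, 0.660 to 0.753). The intervals of Cenpf and of Cenpa or Hjurp were far apart. Members of 1 complex also separated: Nuf2 was at 8.96 and 2.40 CPM (0.267), and its partner in the microtubule-binding complex, Ndc80, was at 22.4 and 13.6 CPM (0.606, 0.532 to 0.690).

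All 12 spindle and kinesin genes had a ratio of 0.5 or less, with a median of 0.279. Gtse1, which stabilizes spindle microtubules, was the smallest of all 44 in T cells with 4.06 CPM (146 UMIs) under lenvatinib and 0.702 CPM (17 UMIs) under combo (0.173, 0.0980 to 0.286). The microtubule depolymerase Kif2c was at 7.85 and 1.57 CPM (0.200), and Hmmr, which helps to position the spindle, at 26.5 and 5.78 CPM (0.218). Kif11, the motor that keeps the spindle poles apart, was at 51.1 and 11.6 CPM (0.226, 0.199 to 0.257). Tpx2, an activator of Aurora A, and Nusap1, which bundles microtubules, were at 39.1 and 9.34 CPM (0.239) and at 56.3 and 14.4 CPM (0.256). The other spindle genes had ratios of 0.302 (Ckap2), 0.306 (Ckap2l), 0.317 (Psrc1), 0.393 (Tacc3), 0.435 (Dlgap5) and 0.439 (Kif20b).

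Genes of chromosome structure held most of the UMIs of the list. Mki67, a coat protein of mitotic chromosomes and the usual marker of dividing cells, was at 182 CPM under lenvatinib and 40.2 CPM under combo (0.221, 0.206 to 0.236). Top2a, the enzyme that untangles sister DNA, was at 198 and 56.9 CPM (0.287, 0.271 to 0.304). The condensin subunits differed, with Ncapd2 at 38.4 and 10.2 CPM (0.267) and Smc4 at 280 and 142 CPM (0.506, 0.487 to 0.526). Cdca2, which brings a phosphatase to chromatin at mitotic exit, was at 9.58 and 3.43 CPM (0.358). Hmgb2, a DNA-bending protein, alone gave 43017 of the 113737 UMIs under lenvatinib and 17820 of the 36711 under combo, and was at 1198 and 736.3 CPM (0.615, 0.604 to 0.626). Without it, the summed T-cell ratio of the list was 0.396. The cytokinesis genes Anln (7.10 and 2.19 CPM, 0.308), Ect2 (10.4 and 3.26 CPM, 0.313) and Kif23 (49.5 and 21.5 CPM, 0.435) all had a ratio of 0.5 or less.

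**Figure D2:**
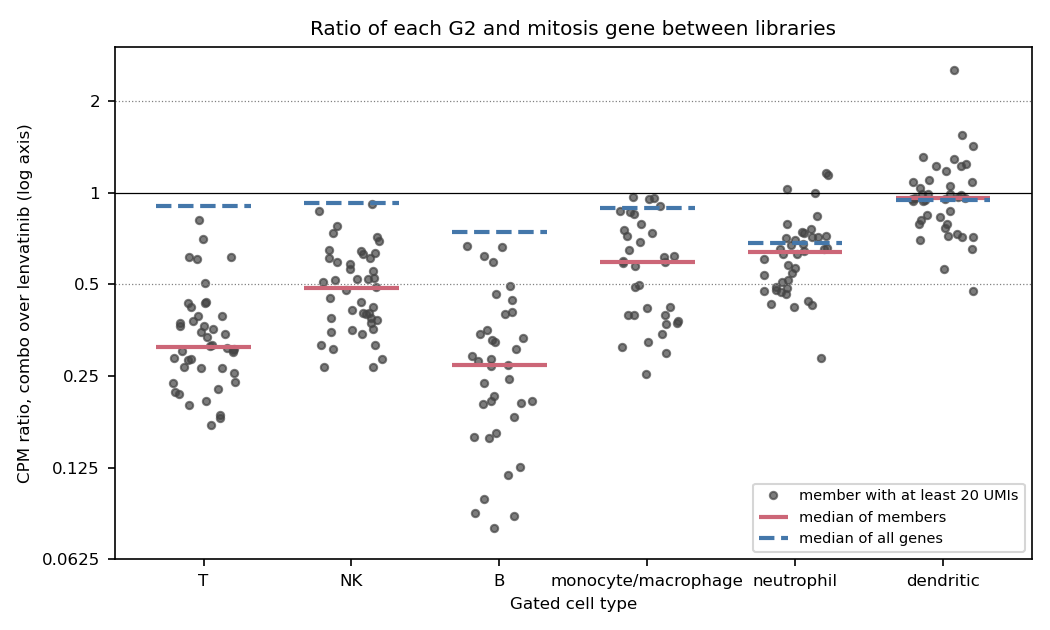
CPM ratio of combo to lenvatinib (vertical log axis), with 1 point per gene of the list with at least 20 UMIs in each gated type (horizontal axis), red lines for the median of the list and dashed blue lines for the median of all genes. T-cell points lie from 0.173 (Gtse1) to 0.813 (Cks2), all below 1, whereas dendritic points scatter on both sides of 1 and the 2 medians there (0.960 and 0.949) nearly coincide.

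NK cells showed the same direction at a smaller size. The 44 genes were all lower, with 23 at a ratio of 0.5 or less, against 3.8% of 11988 genes, and none at 2 or more, against 3.56%. The median ratio was 0.486, against 0.924 for all genes. Mki67 was at 152 CPM under lenvatinib and 46.3 CPM under combo (0.306, 0.273 to 0.341), and Kif11 at 41.0 and 11.7 CPM (0.285). Nek2 and Cdca2, both at 0.268, were the smallest. Cks2 was again the highest at 0.918 (0.847 to 0.995), with Ndc80 at 0.874 (0.686 to 1.10) and Cenpa at 0.778 (0.701 to 0.861). Birc5 (0.583), Cdca8 (0.593) and Cdc20 (0.633), which were below 0.5 in T cells, were above it in NK cells. For Birc5, the T-cell interval ended at 0.380 and the NK interval started at 0.507.

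In B cells, 37 of the 44 genes had at least 20 UMIs over both libraries, and Cdc25c, Ttk, Nek2, Kif2c, Psrc1, Anln and Ect2 did not. Of the 37, 33 had a ratio of 0.5 or less, but this has to be read against 14.7% of 9600 genes, and against a median of 0.744 for all genes. None was at 2 or more, against 2.3%. The median ratio of the list was 0.272. Kif11 was at 42.5 CPM under lenvatinib and 4.19 CPM (14 UMIs) under combo (0.0984, 0.0520 to 0.173), and Mki67 at 194.5 and 35.6 CPM (0.183). Cdca3 (82 and 10 UMIs), Hmmr (48 and 6) and Gtse1 (18 and 2) were lower still, at 0.0866, 0.0888 and 0.0789. The 4 genes above 0.5 were Cks2 (0.668), Cenpa (0.663), Aurka (0.621) and Cks1b (0.591). The summed level of the 8 B-cell markers, which include immunoglobulin genes, took 57876 CPM under lenvatinib and 127731 CPM under combo, so other genes shared a smaller part of the total. Among B cells with fewer than 3 UMIs of Jchain, a plasma cell gene, the summed ratio was 0.444 (0.420 to 0.470), and 0.469 in UMIs per cell. Among the 35 and 44 cells with at least 3, it was 0.255 (3235 and 824.1 CPM), and 0.440 in UMIs per cell, near the value of the other B cells. Erythroid markers in B-gated cells were at 2708 and 7.47 CPM. Under lenvatinib, 2 cells held 6415 of 6432 erythroid UMIs and 7 UMIs of the list, and removing such cells left the ratio at 0.378.

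In Mo/MΦ, 34 of the 44 genes had at least 20 UMIs, all 34 were below 1, and 15 had a ratio of 0.5 or less, against 9.22% of 9340 genes. None was at 2 or more, against 3.99%. The median ratio was 0.592, against 0.892 for all genes. Only 192 and 432 cells were gated, and single genes rested on few UMIs. Markers of other types also differed in this gate: the 8 NK markers summed to 594 and 121 CPM, the 8 T-cell markers to 303 and 157, the 8 dendritic markers to 2563 and 829 and the 8 neutrophil markers to 2399 and 19764. In each 8, the gate gene is at 0 by the rule of the gate. The macrophage gene C1qa was at 841 and 135 CPM. Their part in the result was not tested. Cenpf, with 46 and 34 UMIs, was at 40.5 and 10.3 CPM (0.255, 0.159 to 0.406), and Ccna2 at 27.3 and 8.49 CPM (0.311). In contrast, Ccnb2 (22.9 and 22.1 CPM, 0.968) and Cdca3 (21.1 and 20.3 CPM, 0.962) were nearly level, with intervals on both sides of 1. The count of 15 depended on the cells and the scale, and was 8 in UMIs per cell and 7 with all deposited barcodes.

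In neutrophils, the list lay near the other genes. Of the 40 genes with at least 20 UMIs, 11 had a ratio of 0.5 or less, against 22.1% of 10347 genes. This count was 24 with all deposited barcodes, 21 with any cell that held the gate gene and 4 with at least 2 UMIs of it. None was at 2 or more, against 3.09%. The medians were 0.639 for the list and 0.682 for all genes, and 26 of 40 were below the median of all genes. In UMIs per cell, the median of all genes was 1.45 and the counts became 0 and 4, against 1.83% and 22.4% of all genes, so no direction is given for these cells. Hmgb2 was at 1281 CPM under lenvatinib and 1285 CPM under combo, and Hjurp at 48.3 and 56.3 CPM (1.17, 0.951 to 1.44). Kif23 was at 84.1 and 36.2 CPM (0.431), and 19.1% and 18.4% of the cells had a UMI. Cks2 was at 372.5 and 235.2 CPM (0.631), with a UMI in 48.2% and 50.7% of cells. The shares of cells with a UMI were taken without thinning, at a median depth of 2516 and 4744 UMIs, so they are not compared between the libraries.

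Neutrophils were also divided by Camp, a granule gene of immature neutrophils. Cells with at least 3 Camp UMIs made up 45 of 681 neutrophils in the lenvatinib library and 300 of 1468 in the combo library. The median depth of neutrophils was 2516 and 4744 UMIs, and Camp was at 6536 and 7691 CPM. These shares are therefore not read as a change of maturity. Cells with at least 3 Camp UMIs held the list at 5191 and 2806 CPM (0.541, 0.518 to 0.564), and cells with fewer Camp UMIs at 1837 and 1494 CPM (0.814). In UMIs per cell the ratios were 0.756 and 1.44, so the direction turned with the scale for cells with fewer Camp UMIs.

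In dendritic cells the list lay close to all other genes, and its summed ratio of 0.959 turned to 1.06 with all deposited barcodes. Of 41 genes with at least 20 UMIs, 27 were below 1 and 14 above, and the median of 0.960 was close to the 0.949 of all genes. A single gene, Ncapd2, had a ratio of 0.5 or less (23.8 and 11.4 CPM, 0.478, 0.304 to 0.741), against 4.23% of 9975 genes. Another single gene, Cdca2, was at 2 or more (6.45 and 16.4 CPM, 2.54, 1.42 to 4.78), against 3.51%. Of its 49 UMIs under combo, 33 came from 1 cell. Ccnb2 was at 23.0 and 35.8 CPM (1.56, 1.12 to 2.19), and Mki67 at 126 and 90.5 CPM (0.718, 0.608 to 0.847). Within dendritic cells, those with a UMI of Xcr1, a receptor of cross-presenting cells, held the list at 4176 and 4686 CPM (31 and 26 cells, 1.12). Those with Siglech, a gene of plasmacytoid cells, were at 1169 and 1746 CPM (149 and 136 cells, 1.49), and those with Ccr7, a receptor of migratory cells, at 1639 and 3472 CPM (24 and 27 cells, 2.12). Few cells stood behind these values.

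The sums were next set against the number of cells that held several of these genes. Each cell was thinned to 2000 UMIs, and a cell was counted when it held UMIs of at least 2 of 10 genes of the list (Top2a, Mki67, Birc5, Cdk1, Nusap1, Tpx2, Ccna2, Ccnb2, Cenpf and Ube2c). In T cells, 447 of 4856 cells were counted under lenvatinib (9.21%, exact Clopper-Pearson interval 8.41 to 10.1) and 83 of 3688 under combo (2.25%, 1.80 to 2.78), a ratio of 0.244 (0.179 to 0.331). The corresponding shares in NK cells were 7.19% (169 of 2349) and 2.27% (22 of 969), a ratio of 0.316 (0.172 to 0.553). In B cells 20 of 477 and 4 of 567 cells were counted (4.19% and 0.705%, 0.168, 0.0301 to 0.696). Without thinning, and with no cell left out, the shares were 16.9% and 4.72% in T cells, 16.9% and 6.01% in NK cells and 7.66% and 2.48% in B cells. The counted share was thus lower under combo in all 3 lymphoid types, at both depths.

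In the other 3 types, the interval of the ratio included 1. Mo/MΦ had 9 of 143 cells counted under lenvatinib and 23 of 370 under combo (6.29% and 6.22%, 0.988, 0.343 to 3.15). This ratio was unsteady, at 0.464 when thinned to 1000 UMIs, 0.617 with any cell that held the gate gene and 0.644 when at least 3 genes were required. In dendritic cells it was 18 of 233 and 15 of 215 (7.73% and 6.98%, 0.903, 0.332 to 2.42), and in neutrophils 16 of 492 and 25 of 1367 (3.25% and 1.83%, 0.562, 0.227 to 1.44). At this depth a moderate difference in either direction would not have been detectable in these 3 types. Neutrophils with fewer than 3 Camp UMIs, taken as mature from this 1 gene, were used as the background of the count. It was 2.01% (9 of 447) under lenvatinib and 0.937% (10 of 1067) under combo. Before cells under 2000 UMIs were left out, the median depth was 2454 and 3953 UMIs. The cells counted among them under lenvatinib held 8.67 UMIs of the other 34 genes of the list and 8.22 S-phase UMIs, against 3.08 and 1.30 in those not counted, so this share may include dividing cells and is not a measure of free RNA alone. The T-cell share under combo, from a median depth of 5478 UMIs, was above the background of its library (upper limit 1.72%). The NK interval under combo, from 1.43%, overlapped that of the background, and the B-cell share of 0.705% lay below it and is not read as a number of dividing cells. Under lenvatinib, the B-cell interval (from 2.58%) also overlapped that of the background (to 3.79%), so the B-cell share was not separated from it in either library. The few counted B cells held 12.85 and 16.75 UMIs of the other 34 genes (lenvatinib and combo), against 1.72 and 1.44 in those not counted. Their S-phase UMIs were 16.65 and 18.75, against 2.80 and 2.03, so the B-cell shares may include dividing cells as well.

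**Figure D3:**
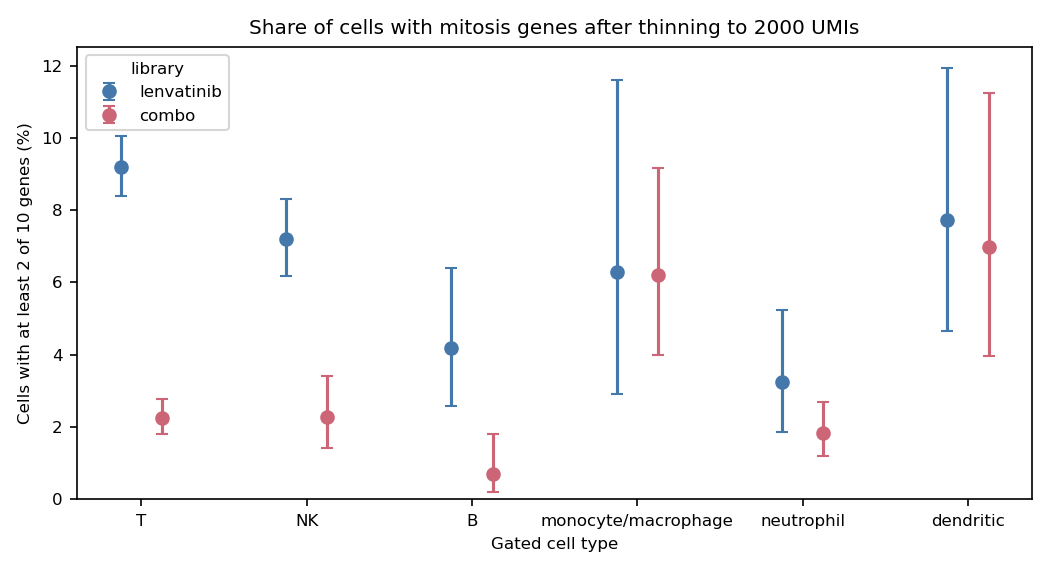
Share of cells with UMIs of at least 2 of the 10 genes (percent, vertical axis) after thinning to 2000 UMIs, by gated type and library, as points with exact Clopper-Pearson 95% intervals. Cells with fewer than 2000 UMIs are left out. T cells are at 9.21% and 2.25% and NK cells at 7.19% and 2.27%, with separate intervals, whereas the Mo/MΦ, neutrophil and dendritic intervals overlap.

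T-cell subsets were counted in the same way. T cells with a UMI of Cd8a had 10.9% counted under lenvatinib and 2.59% under combo (0.237, upper limit 0.344). T cells with a UMI of Trdc, a gamma-delta receptor gene, had 57 of 517 and 5 of 296 counted (11.0% and 1.69%, 0.153, 0.0392 to 0.461). Without thinning that ratio was 0.260, and the share under combo (0.551% to 3.90%) overlapped that of the neutrophils with few Camp UMIs. With Cd4, the shares were 8.11% and 3.63% (0.448, 0.202 to 0.950). With Foxp3, the defining gene of regulatory T cells, 22 of 372 and 2 of 52 cells were counted (5.91% and 3.85%), and the interval of the ratio (0.0532 to 3.53) was too wide to place it. The ratio of the summed level was lowest for Trdc (3450 and 1331 CPM, 0.386), followed by Cd8a (3435 and 1629 CPM, 0.474), Foxp3 (3017 and 1540 CPM, 0.510) and Cd4 (3540 and 2128 CPM, 0.601). The intervals of these sums overlapped for Cd8a and Foxp3.

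The content of the counted T cells was then compared, using the 34 genes of the list that had not been used to count them. A counted cell held on average 17.7 UMIs of these 34 genes under lenvatinib and 15.0 under combo, both of 2000 UMIs. Cells not counted held 2.30 and 1.99. For Hmgb2 the means were 9.01 and 8.63 UMIs in counted cells and 1.16 and 1.15 in the others. For Ccnb1 they were 0.136 and 0.0843 in counted cells, and for Cdc20 0.277 and 0.181. The 10 counting genes together were at 8.99 and 6.69 UMIs. Since cells were selected by their mitotic transcripts, part of the similarity in content follows from the selection. Of all UMIs of the 34 genes in T cells, counted cells held 43.8% under lenvatinib and 14.8% under combo. In NK cells, a counted cell held 16.7 UMIs of the 34 genes in both libraries. T cells made up 447 of all 1016 counted cells under lenvatinib and 83 of 310 under combo, and cells with several gate genes made up 24.4% and 35.8%.

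Genes of the list also differed in how often they were found in cells without other mitotic transcripts. For each gene, the share of cells with a UMI that also held at least 2 other genes of the list was taken in thinned T cells of the lenvatinib library. It was lowest for Hmgb2 (41.3% of 3113 cells), Smc4 (50.6%), Psrc1 (57.1% of 21 cells), Cks2 (57.4%), Hjurp (63.9%) and Cenpa (68.0%), and highest for Ccna2 and Hmmr (98.4% each). The 35 genes at 80% or more had a median ratio of 0.302, from 0.173 to 0.439, and the 8 genes from 50% to 80% a median of 0.556, from 0.287 to 0.813. Over the 44 genes, Pearson's r between this share and the ratio was -0.71 and Spearman's rho -0.57, as a description, since both measures come from the same lenvatinib cells and genes are not independent replicates. Psrc1, Top2a and Kif23 did not follow it, with ratios of 0.317, 0.287 and 0.435.

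**Figure D4:**
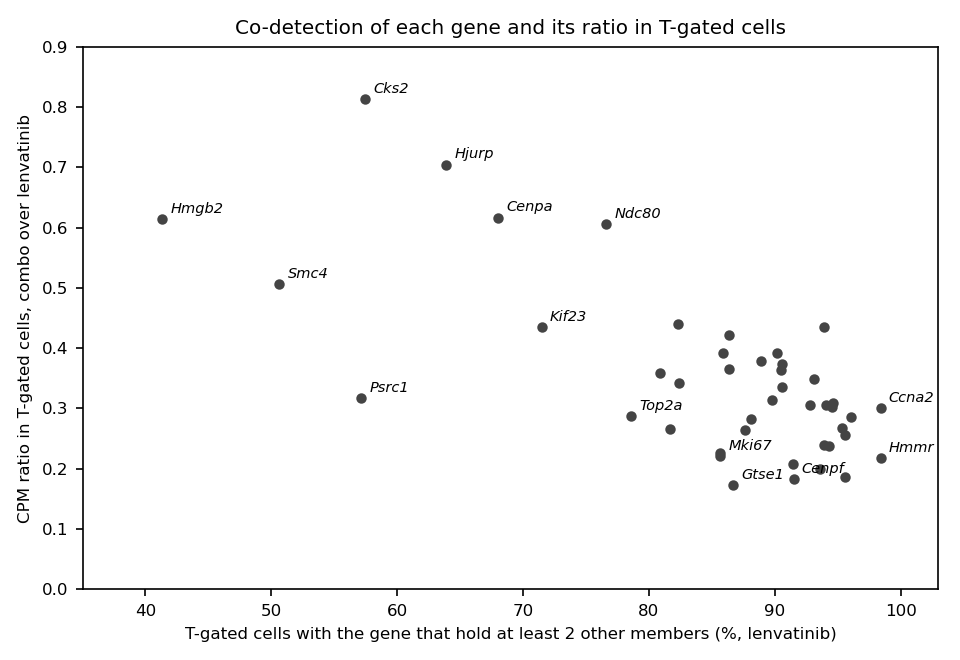
Share of lenvatinib T cells with a gene that also held at least 2 other genes of the list (percent, horizontal axis) against the T-cell CPM ratio of combo to lenvatinib (vertical axis), 1 point per gene. Hmgb2 (41.3%, 0.615) and Cks2 (57.4%, 0.813) lie at the upper left and Hmmr (98.4%, 0.218) at the lower right.

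Hmgb2 was then taken in all T cells with no UMI of any other gene of the list, whether or not they held Hmgb2. It was at 507 CPM (468.5 to 547.0) in these 369 cells under lenvatinib and at 551 CPM (521 to 582) in 526 cells under combo. The ratio was 1.09, a different value from its ratio of 0.615 over all T cells. These cells were chosen without thinning, and the choice favours cells with few UMIs and leaves out dividing cells. Part of the difference between the 2 ratios may therefore follow from the selection, and the value is not read as that of resting T cells. These cells held only 1.52% and 7.13% of the Hmgb2 UMIs of T cells. Cks2 was at 102 CPM (72.0 to 141) and 81.7 CPM (60.1 to 109) in such cells, with overlapping intervals, and Smc4 at 230 CPM (189 to 278) and 140 CPM (112 to 172), with separate ones. Mki67 had only 11 and 5 UMIs in such cells, and Top2a 9 and 2.

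Genes of neighbouring cell cycle steps were described with 3 further lists, whose counts in T cells stand against the 4.62% of all genes given above. Of 52 other G2/M genes, 40 had a ratio of 0.5 or less in T cells, with a median of 0.368. The mitotic kinase Plk1 was at 14.0 and 4.21 CPM (0.302), and Foxm1, a transcription factor that activates G2/M genes, at 10.2 and 2.52 CPM (0.247). Kif18b (0.159), Espl1 and Pimreg had the smallest ratios of this list, and Pttg1 (securin, 1.41) the largest, the only G2/M gene of both lists above 1 in T cells. Of 50 S-phase genes, 11 had a ratio of 0.5 or less and the median was 0.649, with the replication clamp Pcna at 283 and 182 CPM (0.644) and the helicase subunit Mcm2 at 51.1 and 31.7 CPM (0.620). Counted T cells, which carry these genes as well, held 12.1 and 12.3 S-phase UMIs per cell.

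Of 20 genes of the CDK4/6 and RB pathway, 2 had a ratio of 0.5 or less in T cells (E2f7 and E2f2), and the median was 0.825. Cdk4 and Cdk6, which encode the targets of palbociclib, were at 72.8 and 77.6 CPM (1.06) and at 131 and 110 CPM (0.844). Their cyclins Ccnd2 (478 and 437 CPM, 0.914) and Ccnd3 (153 and 175 CPM, 1.15) and their substrate Rb1 (32.8 and 26.4 CPM, 0.806) were nearer to 1 than Hjurp, the gene with the second highest ratio of the 44. Cks2, with the highest ratio of the 44 (0.813), was nearer to 1 than Rb1. The CDK inhibitor Cdkn1a was at 43.6 and 58.1 CPM (1.33). In B cells, by contrast, Cdk6 was at 61.5 and 13.2 CPM (146 and 44 UMIs, 0.214), the S-phase list had 31 of 48 genes at 0.5 or less (against 14.7% of all genes), and Foxm1 had 25 and 3 UMIs. In NK cells the S-phase median was 0.909 and the median of the other G2/M genes 0.484. In neutrophils the S-phase list (median 0.564, 20 of 48 genes at 0.5 or less, against 22.1% of all genes) was below the median of all genes of 0.682, with Pcna at 167 and 57.5 CPM (0.345). Ratios in neutrophils depended on the scale (for the sum of the 44 genes, 0.809 in CPM and 1.72 in UMIs per cell). No direction is therefore given for the S-phase list in these cells. In dendritic cells the medians of the 3 lists lay between 0.921 and 1.04.

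**Figure D5:**
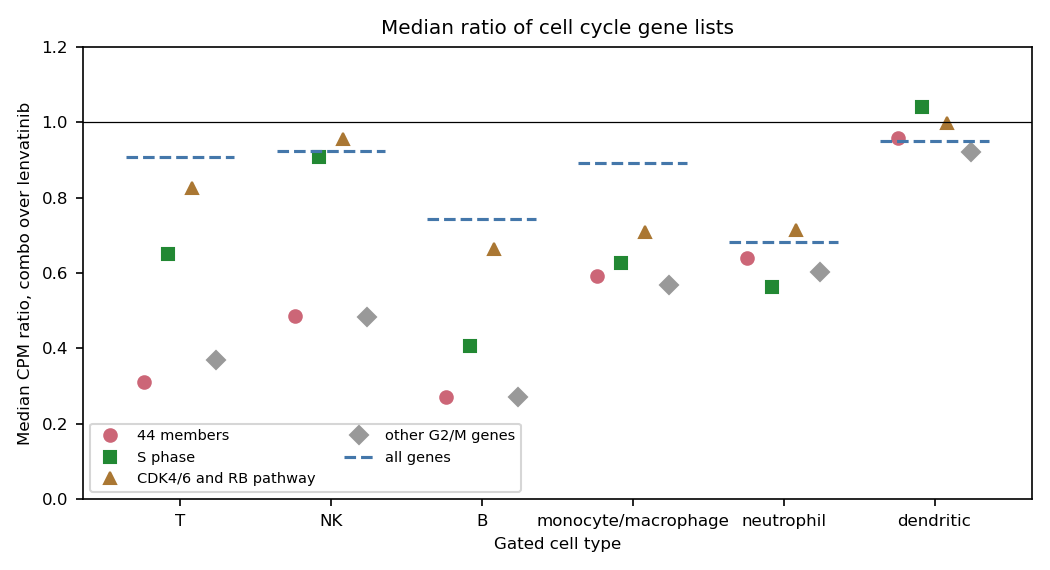
Median CPM ratio of combo to lenvatinib (vertical axis) of the 44-gene list and of 3 further cell cycle lists (symbols) in each gated type, with dashed lines for the median of all genes. In T cells the medians step from 0.311 (the 44 genes) and 0.368 (other G2/M) to 0.649 (S phase) and 0.825 (CDK4/6 and RB pathway).

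The genes named most often here lie on mm10 (GENCODE annotation) at chr1:189640606-189688086 for Cenpf (ENSMUSG00000026605), chr15:85859745-85876573 for Gtse1 (ENSMUSG00000022385), chr13:51645232-51650660 for Cks2 (ENSMUSG00000062248), chr8:57511907-57515999 for Hmgb2 (ENSMUSG00000054717), chr11:98992943-99024189 for Top2a (ENSMUSG00000020914) and chr7:135689784-135716361 for Mki67 (ENSMUSG00000031004). No gene of the list overlaps another protein-coding gene on its own strand, and 7 (Ccna2, Cdc20, Cdc25c, Cdca8, Nusap1, Tacc3 and Ube2c) overlap 1 on the opposite strand, where the use of strand in counting was not stated.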

How the data were processed

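Live CD45+ cells of 2 libraries, 1 per treatment, had been sequenced with 10X 3′ chemistry. Whole-number UMI counts, 1 matrix per library mapped to mm10, were deposited by the authors. The study's processing notes name Cell Ranger version 5.0.1, whereas the matrix headers name version 6.0.1. The deposited counts were used unscaled, with the cell filter of the study (6000 genes, 25% mitochondrial UMIs). UMIs were summed over gated cells and divided by their total (CPM). A gene entered a type with at least 20 UMIs over both libraries, and a count of 0 in a library was set to 3 counts, which gives a bound. Intervals were exact Poisson for CPM, exact conditional binomial for ratios of CPM and Clopper-Pearson for shares, at 95% (scipy 1.17.1, numpy 2.4.6, python 3.11.15). For ratios of shares, the lower limit is the lower combo limit over the upper lenvatinib limit, and the upper limit the reverse. These limits are wider than a 95% interval. Doublets were kept. Scrublet (scanpy 1.11.5, expected rate 6%) called 4.46% and 2.76% of cells, which were removed in an alternative. Cells are not replicates, so no p-value was computed. The scripts were tested on simulated data.

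The genes and lists were chosen with earlier results of these data known. Members could all be named. Of other lists, 11 genes (such as Cdk4, Cdk6, Pcna and Plk1) and the 3 smallest and 3 largest ratios could be. The alternatives changed the gate, cell filter, doublets, CPM total, Hmgb2, the UMI minimum, the thinning depth and the number of genes that count a cell. Removal of shared barcodes and of cells with at least 10 erythroid UMIs were chosen after seeing the data. Promoters came from RefSeq tables.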

Additional observations from a re-analysis of the deposited data

Results flagged for a closer look

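Cdca2 differed in direction between cell types: the CPM ratio of combo to lenvatinib was 0.358 in T cells, 0.268 in NK cells, 0.207 in B cells and 2.54 in dendritic cells. The difference between the types was not tested, and 33 of its 49 UMIs in dendritic cells under combo came from 1 cell.

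Cells with at least 2 of the 10 genes were also found outside the gates. Cells under 2000 UMIs were again left out, which were 1146 of 2535 and 377 of 1449 of the cells with no gate gene (lenvatinib and combo). Among cells with no gate gene, 6.41% were counted under lenvatinib and 2.52% under combo, and among cells with several gate genes 11.1% and 4.24%. These shares were above the limit that a count of 0 allows. Neutrophils with fewer than 3 Camp UMIs gave 2.01% and 0.937%, and the interval of the cells with no gate gene under combo (from 1.67%) overlapped theirs (to 1.72%). Scrublet called 14.5% and 9.79% of the cells with several gate genes as doublets.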

How the results depend on the processing

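With 1 library per group, no difference has a replicate check. No paired analysis was possible because each group has 1 library and no result comes from a test. Of 258 values under alternative settings, 208 moved by less than their counting interval (counts: by less than 1.5 times), 47 moved further, and 3 reversed. The 3 reversed values were the summed ratios of neutrophils (1.72) and dendritic cells (1.33) in UMIs per cell, and that of dendritic cells with all deposited barcodes (1.06), against 0.809 and 0.959 in the report. With doublets removed, at most 10% mitochondrial UMIs, shared barcodes removed or cells with at least 10 erythroid UMIs removed, no value moved further. The causes were not tested.

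The summed ratio moved to 0.503 (T), 0.606 (NK), 0.782 (neutrophils) and 0.998 (dendritic cells) when the CPM total excluded hemoglobin, mitochondrial and ribosomal protein genes. In UMIs per cell it was 0.440 (T), 0.624 (NK), 0.473 (B), 0.866 (Mo/MΦ), 1.72 (neutrophils) and 1.33 (dendritic cells), the last 2 of which crossed 1. With any cell that held the gate gene, it was 0.492, 0.615, 0.522, 0.737, 0.666 and 0.805 in the same order. With at least 2 UMIs of the gate gene it was 0.471 (T), 0.559 (NK), 0.783 (Mo/MΦ) and 0.857 (neutrophils). With all deposited barcodes it was 0.486 (T), 0.634 (NK), 0.793 (Mo/MΦ), 0.716 (neutrophils) and 1.06 (dendritic cells). Without Hmgb2 it was 0.396 (T), 0.501 (NK), 0.321 (B), 0.571 (Mo/MΦ) and 0.615 (neutrophils).

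The number of genes with a ratio of 0.5 or less moved from 15 in Mo/MΦ to 8 in UMIs per cell, 9 with at least 2 UMIs of the gate gene, 7 with all barcodes, 9 with genes of at least 50 UMIs and 23 with genes of at least 5. In neutrophils it moved from 11 to 0, 4 and 24 under the first 3 of these, and to 21 with any cell that held the gate gene. In dendritic cells it moved from 1 to 0 in UMIs per cell and with all barcodes, to 4 with any cell that held the gate gene and to 3 with genes of at least 5 UMIs. The number at 2 or more was 4 (neutrophils) and 2 (dendritic cells) in UMIs per cell, 1 (Mo/MΦ), 1 (neutrophils) and 0 (dendritic cells) with at least 2 UMIs of the gate gene, and 0 (dendritic cells) with any cell that held it. In T cells, the ratio of the counted share was 0.434 when 1 of the 10 genes sufficed. The counts in T, NK and B cells stayed within 1.5 times under every alternative run.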
